A study of Mus musculus with 18 samples.

Results

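The Hox, Dlx and Msx genes encode homeodomain transcription factors, and their transcripts were followed here in stem cells and other keratinocytes of mouse skin. Members were taken by name: every probe set on the array whose platform annotation gives a single symbol of the Hoxa, Hoxb, Hoxc, Hoxd, Dlx or Msx families. This gave 61 of 45101 probe sets, which stand for 42 genes. All 42 symbols were matched in RefSeq through their Entrez identifiers. A further 3 probe sets that name several Hox genes at once were left out.

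The mice were double transgenic, K5tTA (FvB) crossed with pTRE-H2B-GFP (CD1), so that a keratin 5 promoter drives a histone-GFP label in epithelial cells until doxycycline shuts it off and each division dilutes it. All mice carried both transgenes and all received doxycycline at 1 g per kg of food, from postnatal day (PD) 22 to PD25 or from PD18 to PD21. Cells were sorted by CD34, α6-integrin and GFP into divided bulge cells (1 to 2 divisions during the chase), undivided bulge cells (0 divisions) and non-bulge cells, whose divisions the labels do not give, and 5 ng of RNA from each was amplified before hybridisation. The 6 groups (PD25 divided bulge, PD25 undivided bulge, PD25 non-bulge, PD21 divided bulge, PD21 undivided bulge and PD21 non-bulge) held 3 arrays each, 1 per mouse, and the labels give the 3 fractions of an age the same mouse numbers. Only cells that express keratin 5 carry the label, and the non-bulge fraction is the rest of a skin sort rather than 1 cell type.

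Hox genes lie in clusters, and their order along the chromosome is known to follow the order in which they are expressed from the front to the back of the embryo. Genes of the same number in different clusters, called a paralog group, descend from 1 ancestral gene. In skin, HOXC13 is best known for switching on hair keratin genes in the forming hair shaft, DLX3 is required for hair shaft and inner root sheath differentiation, and MSX2 acts with FOXN1 in the hair matrix. Many Hox proteins bind DNA together with TALE-class partners such as the PBX and MEIS proteins. The bulge is the part of the resting follicle that houses its stem cells.

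A probe set was taken as measurable when its signal exceeded the median of its own array in 3 or more of the 18 arrays. By that rule 39 of the 61 probe sets and 26 of the 42 genes were kept. These were Dlx1, Dlx2, Dlx3, Dlx4 and Dlx5, Hoxa2, Hoxa3, Hoxa4, Hoxa5, Hoxa7 and Hoxa9, Hoxb2, Hoxb3, Hoxb4, Hoxb5, Hoxb6, Hoxb7 and Hoxb9, Hoxc4, Hoxc5, Hoxc6, Hoxc8, Hoxc9 and Hoxc13, Hoxd8, and Msx2. Of the Hox clusters, Hoxd on chromosome 2 had 1 gene kept of 8, against 6 of 9 for Hoxa on chromosome 6, 7 of 9 for Hoxb on chromosome 11 and 6 of 7 for Hoxc on chromosome 15. Of the Hox genes in paralog groups 1 to 9, 19 of 23 were kept. Of those in groups 10 to 13, 1 of 10 was kept, and that gene was Hoxc13. The genes not kept were Dlx6, Hoxa10, Hoxa11, Hoxa13, Hoxb1, Hoxb13, Hoxc10, Hoxd1, Hoxd3, Hoxd9, Hoxd10, Hoxd11, Hoxd12, Hoxd13, Msx1 and Msx3. The highest signal of any probe set left out was 151.9, for Msx1, and the signal of a dim probe set does not show that its gene is silent.

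**Figure D1:**
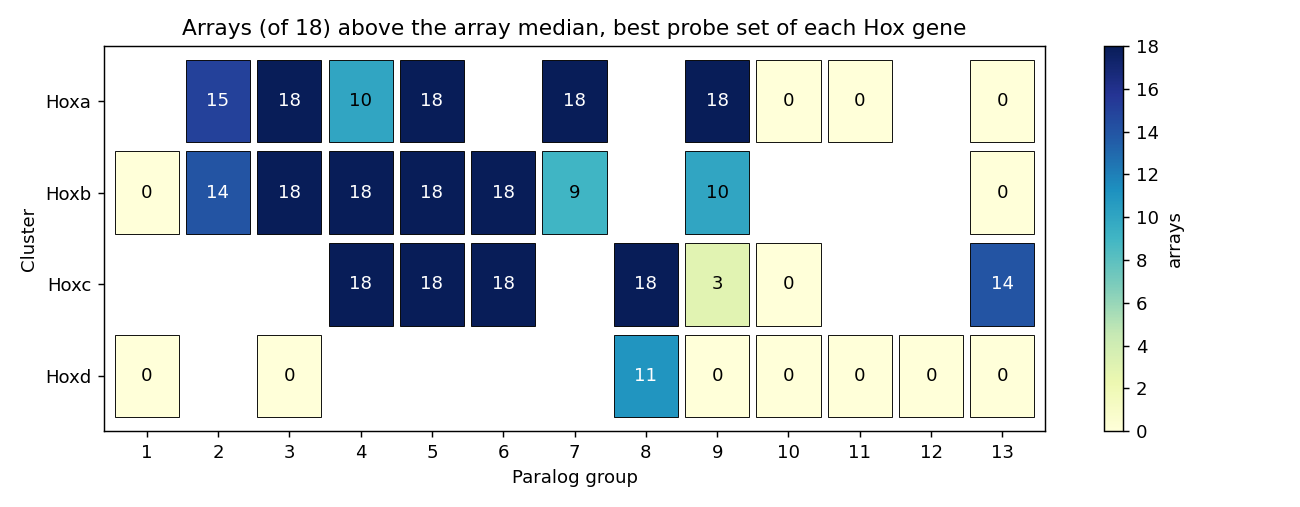
Number of arrays, of 18, on which the probe set of each Hox gene that was most often above the array median exceeded it, by cluster (rows) and paralog group (columns). Blank squares hold no probe set that names such a gene alone. Genes of groups 2 to 9 in Hoxa, Hoxb and Hoxc reach 9 arrays or more apart from Hoxc9 at 3, groups 10 to 13 read 0 apart from Hoxc13 at 14, and Hoxd8 at 11 is the only Hoxd gene above 0.

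The map of the Hox clusters shows this pattern. Near the edge of the rule, Hoxc9, 1 probe set of Dlx4 and 1 of Hoxa3 exceeded the median on exactly 3 arrays, while a probe set of Msx1 did so on 2. A gene that passes only through the group in which it is high had to differ between groups, so the counts over the 26 tested genes below describe those genes and are not evidence about the families. Levels of different probe sets cannot be set against each other, and each gene was tested through its probe set of highest mean.

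All arrays had the same 2% trimmed mean of 500, and they fell into 2 sets of 9 by their spiked hybridisation controls. Set A held all fractions of PD25 mouse 1 and of PD21 mice 1 and 2, and set B held the rest, so values within each set stand beside the pooled ones. Each PD25 fraction in set A and each PD21 fraction in set B is 1 array, and a call there assumes that it varies like the other groups. Cd34, a sorting marker, gave signals of 3007.3 to 7445.1 in PD25 divided bulge cells, 4837.9 to 5788.8 in PD25 undivided bulge cells and 1.4 to 30.9 in PD25 non-bulge cells. At PD21 it gave 224.7 to 806.8 in divided bulge cells, 5402.8 to 8912.8 in undivided bulge cells and 1.1 to 25.1 in non-bulge cells. The PD21 divided fraction thus lay below every other bulge array in a gene used to sort it, and a change in its cells and a larger share of non-bulge cells in its gate cannot be told apart. Of 8 bulge markers, 6 were higher in PD25 divided and in PD25 undivided bulge cells than in non-bulge cells, 2 in PD21 divided and 6 in PD21 undivided bulge cells. Of all genes tested against non-bulge cells, 8.87% passed in PD25 divided and 10.5% in PD25 undivided bulge cells. At PD21 the shares were 0.182% in divided and 11% in undivided bulge cells.

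Markers of other cell types were measured on the same arrays. Beside their counts against non-bulge cells stand the shares of all genes that passed. These were 8.87% and 10.5% in PD25 divided and undivided bulge cells, and 0.182% and 11% at PD21. Of 16 dermal markers 7 were tested, and 4 of them were higher in PD25 divided bulge, 2 in PD25 undivided, 1 in PD21 divided and 3 in PD21 undivided bulge cells, each against non-bulge cells of its age. Their summed signal was 7997 to 17776, 10436 to 14062 and 4559 to 8708 in PD25 divided bulge, undivided bulge and non-bulge cells, and 7458 to 10670, 17880 to 32070 and 3666 to 6319 in the same fractions at PD21. Sparc was the highest gene of this sum. Its median signals were 8142.7, 7447 and 7777.9 at PD25 and 5862.2, 19620.1 and 3286.9 at PD21, in the same order. Sparc and Vim exceeded the array median on 18 arrays, Col1a1 on 14, Crabp1 on 10, Col3a1 on 9 and Col1a2 on 8. Pdgfrb did so on 6, Vcan on 2 and Dcn on 1. Pdgfra, Twist1, Twist2, Lum, Prrx1, Corin and Sox2 did so on 0. Col1a1 passed in all 4 bulge fractions, Crabp1 in all but PD21 divided, Col1a2 and Col3a1 in PD25 divided, and Sparc in PD21 undivided. Of 9 melanocyte markers 4 were tested, and Mitf and Dct were higher in both PD25 bulge fractions, with Mitf alone in PD21 undivided bulge cells. The melanocyte sum was 1262 to 2033, 1153 to 1360 and 278 to 660 in PD25 divided bulge, undivided bulge and non-bulge cells and 517 to 1300, 1118 to 3959 and 709 to 924 at PD21, and the pigment genes Pmel, Dct, Tyrp1, Tyr and Mlana exceeded the array median on 13, 8, 1, 0 and 0 arrays. Of 6 hair germ markers 5 were tested, and Lef1 and Lgr5 were higher in both PD25 bulge fractions and in PD21 undivided bulge cells, with sums of 1236 to 2371, 1594 to 2125 and 510 to 819 at PD25 and 667 to 1696, 2590 to 3969 and 618 to 820 at PD21, fractions in the same order. Of 7 immune markers 4 were tested and 0 passed against non-bulge cells, of 5 muscle markers 2 were tested and Tagln was lower in PD21 undivided bulge cells, and 0 of 5 endothelial markers were tested. The part of these cells in the results below was not tested, and in bulk samples fewer cells of a type and less RNA per cell cannot be told apart.

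The first question was which of these homeobox genes separate the bulge from the rest of the sorted keratinocytes. Hoxd8, Hoxc13, Dlx2, Dlx3 and Dlx5 were higher in undivided bulge cells than in non-bulge cells at both ages and in divided bulge cells at PD25, by about 3-fold to over 30-fold. Hoxc4 ran the other way, 3-fold to 4-fold lower in the bulge. In PD21 divided bulge cells 0 of the 26 genes passed. Hoxb7 was higher in both PD25 bulge fractions, Hoxb3 and Hoxb6 in the PD25 divided fraction, and Hoxc8 in the PD25 divided and PD21 undivided fractions. Overlap of samples is given below for single genes. Of all tested genes, 21.9% had no overlap with non-bulge samples in PD25 divided and 24.4% in PD25 undivided bulge cells. At PD21 these shares were 8.71% in divided and 26% in undivided bulge cells.

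Hoxd8, a gene of trunk patterning, was near the bottom of the scale in non-bulge cells and well above the median in most bulge samples. Its signals at PD25 were 1272.1, 684.7 and 1165.2 in divided bulge cells, 1691.6, 1177.7 and 1418.0 in undivided bulge cells and 13.4, 35.2 and 40.2 in non-bulge cells of mice 1 to 3. At PD21 they were 70.9, 29.2 and 272.0 in divided bulge cells, 1396.6, 118.5 and 746.8 in undivided bulge cells and 17.8, 2.0 and 27.2 in non-bulge cells. Every PD25 bulge sample and every PD21 undivided sample lay above all non-bulge samples of its age, with PD21 undivided mouse 2 far below the other mice of its group. The PD21 divided samples also lay above the PD21 non-bulge samples, narrowly for mouse 2 at 29.2 against 27.2. The log2 fold change against non-bulge cells was 4.54 ± 0.70 in PD25 divided bulge (± SE of the fit, 3 mice a group, limma adjusted p = 8.68e-05), 5.03 ± 0.70 in PD25 undivided bulge (adjusted p = 1.58e-05) and 4.14 ± 0.70 in PD21 undivided bulge (adjusted p = 0.000176). Within sets A and B the PD25 undivided value was 5.86 and 4.61 and the PD21 undivided value 4.14 and 4.14. Fold changes are on the log2(signal + 16) scale, which understates the change of a gene as dim as Hoxd8 was in non-bulge cells. A second Hoxd8 probe set passed in the same direction, at 3.05 ± 0.66, 3.91 ± 0.66 and 3.26 ± 0.66 in the same order.

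Hoxc13, the hair shaft regulator, showed the same separation. At PD25 its signals were 1629.5, 1025.5 and 1871.7 in divided bulge cells, 1288.9, 1473.9 and 1095.0 in undivided bulge cells and 33.6, 275.8 and 76.3 in non-bulge cells. At PD21 they were 226.7, 128.1 and 220.0 in divided bulge cells, 718.8, 1175.4 and 1053.6 in undivided bulge cells and 53.1, 77.4 and 91.4 in non-bulge cells. The bulge and non-bulge samples of an age did not overlap in any of these pairings. The log2 fold change was 3.75 ± 0.48 in PD25 divided bulge (limma adjusted p = 8.33e-06), 3.55 ± 0.48 in PD25 undivided bulge (adjusted p = 1.08e-05) and 3.47 ± 0.48 in PD21 undivided bulge (adjusted p = 1.62e-05), that is 13.4-fold, 11.7-fold and 11.1-fold higher. Within sets A and B the values of Hoxc13 were 5.05 and 3.10, 4.72 and 2.97, and 3.54 and 3.32, of which 5.05, 4.72 and 3.32 each set 1 array against 1.

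Among the Dlx genes, Dlx2, known from forebrain and branchial arch development, gave signals of 1456.2, 1625.0 and 2607.7 in PD25 divided bulge cells, 1853.8, 1915.9 and 1635.6 in PD25 undivided bulge cells and 307.0, 78.3 and 560.0 in PD25 non-bulge cells. The PD21 signals were 134.7, 445.7 and 408.6 in divided bulge cells, 1444.8, 2101.4 and 1050.1 in undivided bulge cells and 113.0, 80.2 and 386.9 in non-bulge cells. Both PD25 bulge fractions and the PD21 undivided fraction lay above all non-bulge samples, while the PD21 divided samples overlapped them. The log2 fold change against non-bulge cells was 2.83 ± 0.55 in PD25 divided, 2.80 ± 0.55 in PD25 undivided and 3.12 ± 0.55 in PD21 undivided bulge cells (limma adjusted p = 0.00114, 0.000963 and 0.000308). In set B, which holds 1 PD21 mouse, the PD21 undivided value of Dlx2 was 1.40 and did not pass.

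Dlx3, the regulator of hair shaft differentiation, gave signals of 240.1, 419.3 and 948.5 in PD25 divided bulge cells, 384.1, 489.8 and 370.6 in PD25 undivided bulge cells and 15.6, 170.3 and 7.0 in PD25 non-bulge cells. At PD21 these signals were 223.4, 52.8 and 85.7 in divided bulge cells, 414.0, 458.2 and 293.2 in undivided bulge cells and 83.6, 18.5 and 58.1 in non-bulge cells. Undivided bulge samples lay above the non-bulge samples at both ages, as did PD25 divided samples. The log2 fold change of Dlx3 was 3.21 ± 0.68 in PD25 divided, 3.06 ± 0.68 in PD25 undivided and 2.65 ± 0.68 in PD21 undivided bulge cells (limma adjusted p = 0.00248, 0.00303 and 0.00989). A second, dimmer Dlx3 probe set stood at 2.01 ± 0.77, 2.19 ± 0.77 and 1.43 ± 0.77 and did not pass.

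Dlx5, a gene of craniofacial and bone development, gave signals of 409.8, 513.5 and 439.0 in PD25 divided bulge cells, 532.5, 675.5 and 568.8 in PD25 undivided bulge cells and 53.4, 228.8 and 210.1 in PD25 non-bulge cells. The PD21 arrays read 424.8, 169.3 and 214.9 in divided bulge cells, 852.6, 1109.7 and 604.2 in undivided bulge cells and 371.8, 104.0 and 187.8 in non-bulge cells. The same groups were separated as for Dlx2 and Dlx3. The log2 fold change of Dlx5 was 1.58 ± 0.49 in PD25 divided, 1.95 ± 0.49 in PD25 undivided and 2.00 ± 0.49 in PD21 undivided bulge cells (limma adjusted p = 0.0445, 0.00902 and 0.00715). Of the remaining tested Dlx genes, Dlx1, which neighbours Dlx2 and is known to act with it in forebrain interneurons, stood at 0.12 ± 0.64 in PD25 divided, -0.18 ± 0.64 in PD25 undivided and -0.85 ± 0.64 in PD21 undivided bulge cells against non-bulge cells. Dlx4 stood at 0.94 ± 0.75, -0.22 ± 0.75 and -1.46 ± 0.75, and neither passed.

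Hoxc4 and Hoxc8, which pattern the neck and trunk skeleton and lie in the same cluster as Hoxc13, went in opposite directions. Hoxc4 gave signals of 228.5, 738.3 and 423.8 in PD25 divided bulge cells, 352.1, 479.5 and 182.0 in PD25 undivided bulge cells and 1718.3, 1250.2 and 1065.1 in PD25 non-bulge cells. In the PD21 mice it gave 1115.3, 2258.4 and 811.6 in divided bulge cells, 374.0, 451.4 and 446.2 in undivided bulge cells and 1727.6, 1299.6 and 978.1 in non-bulge cells. All PD25 bulge samples and all PD21 undivided samples were below the non-bulge samples. The PD21 divided samples overlapped with them and spread wider, from 811.6 to 2258.4 against 978.1 to 1727.6. Hoxc4 was lower, with log2 fold changes of -1.62 ± 0.41 in PD25 divided, -2.01 ± 0.41 in PD25 undivided and -1.59 ± 0.41 in PD21 undivided bulge cells (limma adjusted p = 0.011, 0.00137 and 0.011).

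Hoxc8 gave signals of 5161.2, 3668.8 and 4124.8 in PD25 divided bulge cells, 4526.6, 4011.6 and 3151.8 in PD25 undivided bulge cells and 2703.2, 2529.0 and 2178.5 in PD25 non-bulge cells. At PD21 it gave 1711.0, 3215.5 and 1680.2 in divided bulge cells, 4274.4, 4642.4 and 3251.2 in undivided bulge cells and 2329.4, 1727.3 and 2121.7 in non-bulge cells. The groups did not overlap at PD25, and the size of the difference was modest. Hoxc8 was higher by 0.79 ± 0.25 in PD25 divided and 0.97 ± 0.25 in PD21 undivided bulge cells (limma adjusted p = 0.0492 and 0.0111), and it stood at 0.64 ± 0.25 in PD25 undivided bulge cells (adjusted p = 0.12).

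Of the Hoxb genes, Hoxb7, Hoxb6 and Hoxb3 passed at PD25. Hoxb7, a trunk patterning gene, gave signals of 85.4, 89.2 and 167.2 in PD25 divided bulge cells, 186.3, 115.4 and 97.2 in undivided bulge cells and 25.8, 9.4 and 24.4 in non-bulge cells, with log2 fold changes of 1.84 ± 0.52 and 2.04 ± 0.52 (limma adjusted p = 0.025 and 0.00971). These signals lie near the array medians, which ranged from 60.3 to 116.6. At PD21 Hoxb7 gave 64.7, 46.9 and 86.4 in divided bulge cells, 92.5, 93.4 and 139.8 in undivided bulge cells and 35.5, 112.3 and 74.5 in non-bulge cells, and each bulge fraction overlapped with the non-bulge samples. Hoxb6, its neighbour, gave 529.4, 321.9 and 1042.2 in PD25 divided bulge cells, 359.0, 555.4 and 351.0 in undivided bulge cells and 110.1, 170.7 and 152.5 in non-bulge cells, and was higher by 1.87 ± 0.59 in the divided fraction (adjusted p = 0.0483). At PD21 Hoxb6 gave 68.4, 121.7 and 229.9 in divided bulge cells, 111.9, 116.4 and 743.7 in undivided bulge cells and 138.2, 216.8 and 203.3 in non-bulge cells. Undivided mouse 3 alone was high there. Hoxb3, which patterns the hindbrain, gave 2339.5, 1084.0 and 1150.1 in PD25 divided bulge cells, 1198.6, 1201.5 and 1144.0 in undivided bulge cells and 803.1, 582.3 and 756.4 in non-bulge cells, and was higher by 1.00 ± 0.31 in the divided fraction (adjusted p = 0.0419). At PD21 Hoxb3 gave 665.3, 1006.8 and 954.4 in divided bulge cells, 909.0, 686.4 and 1109.9 in undivided bulge cells and 459.8, 439.4 and 776.8 in non-bulge cells. Its second probe set stood at 1.60 ± 0.51 in PD25 divided bulge cells (adjusted p = 0.0607).

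**Figure D2:**
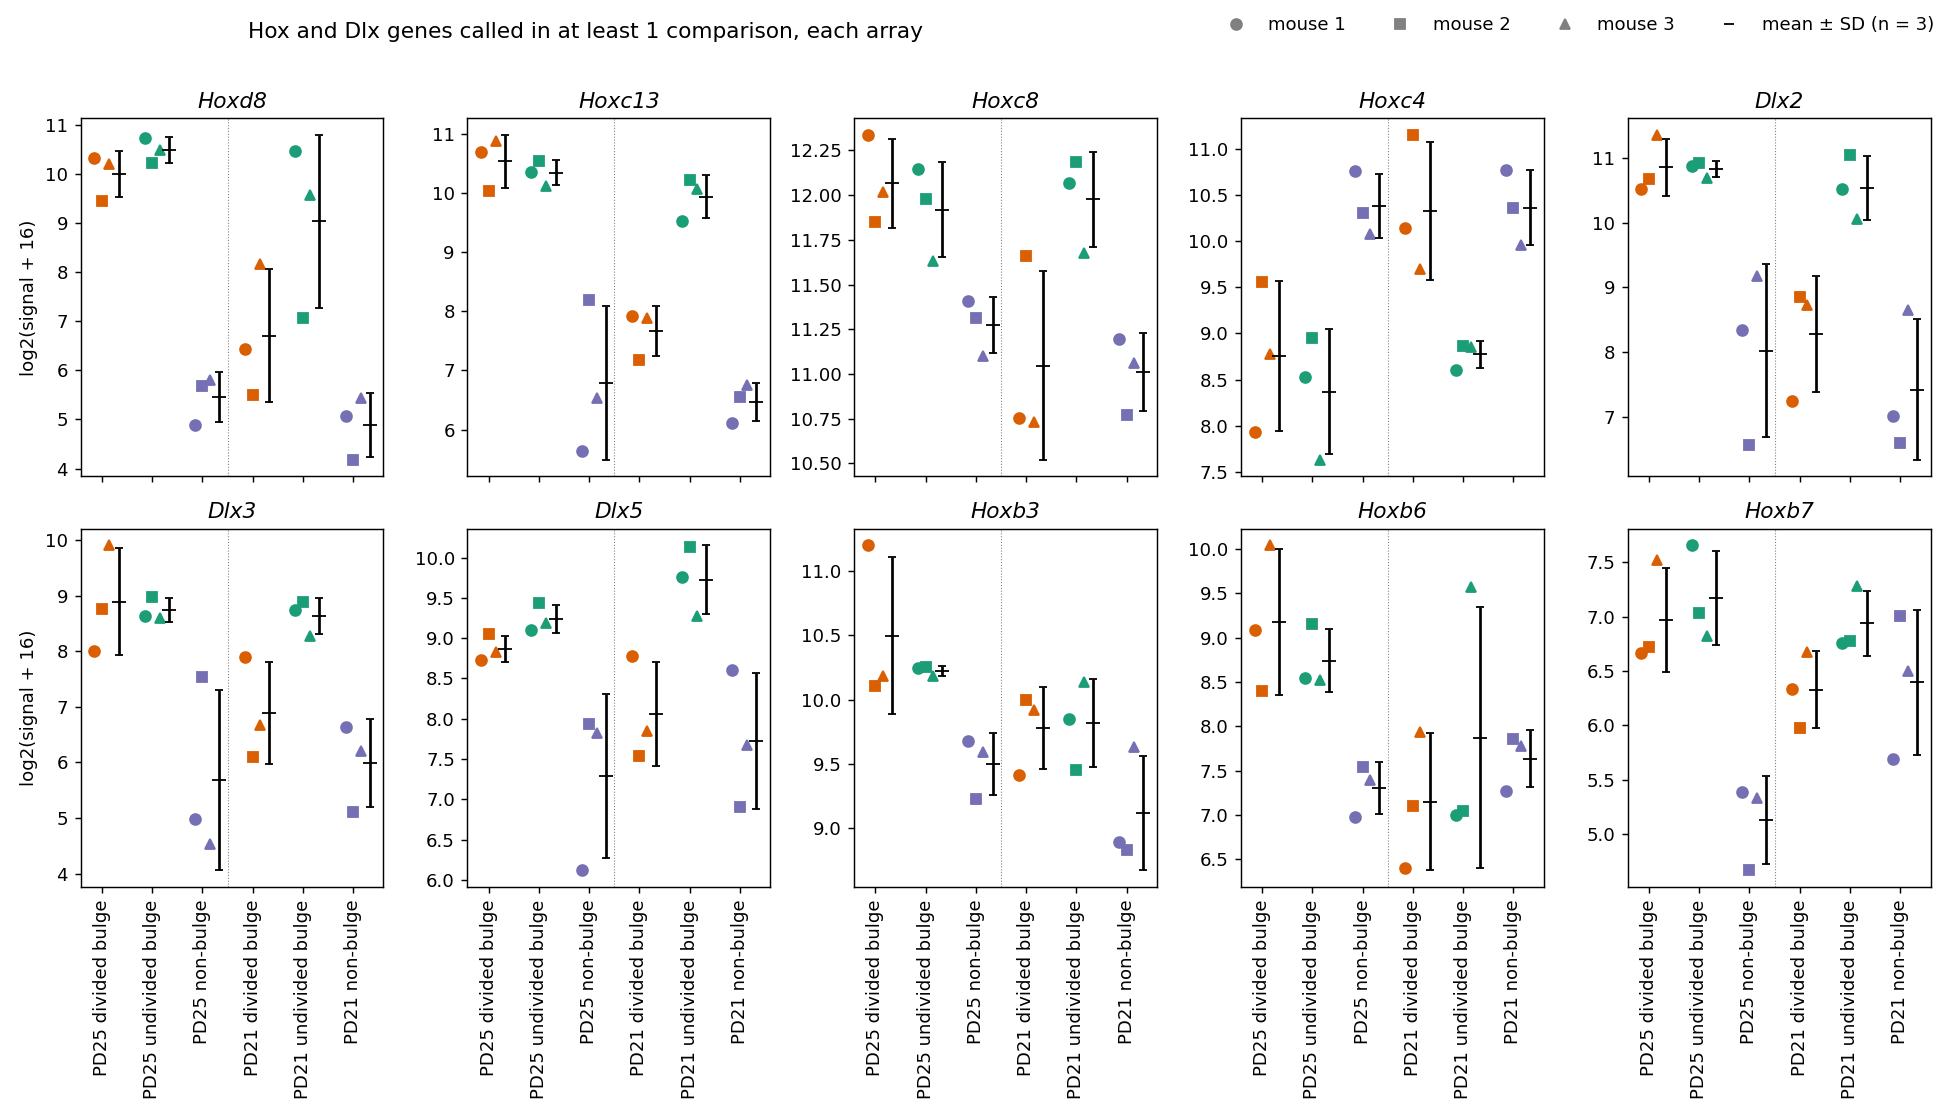
Each array's log2(signal + 16) for the 10 Hox and Dlx genes that passed in at least 1 comparison, by group along the horizontal axis, with the mean ± SD of 3 mice as bars. Hoxd8, Hoxc13, Dlx2, Dlx3 and Dlx5 are high in both PD25 bulge groups and the PD21 undivided group, and Hoxc4 is low in them. For these genes the PD21 divided mean lies nearer to the PD21 non-bulge than to the PD21 undivided mean. Its Hoxd8 and Hoxc13 arrays still lie above all PD21 non-bulge arrays.

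The plot of each array shows the 10 genes that passed anywhere. Counted over the 26 tested genes, 10 passed in PD25 divided bulge against non-bulge cells, 9 higher and 1 lower, where 8.87% of all 11569 tested genes passed. The median log2 fold change was 0.97 over the 26 genes and -0.02 over all. In PD25 undivided bulge cells 7 passed, 6 higher and 1 lower, against 10.5% of all genes, with medians of 0.78 and -0.02. When the mouse entered the fit as a block this count was 11, adding Hoxc8, Hoxc9, Hoxb5 and Hoxb6 (limma adjusted p = 0.0462, 0.0379, 0.0495 and 0.0493), and the count over all genes was 1700 in place of 1220. In PD21 divided bulge cells 0 passed, where 0.182% of all genes passed. An unadjusted p under 0.05 was reached there by 3 of the 26 (Hoxd8 at 1.81 ± 0.70, Hoxc13 at 1.19 ± 0.48 and Hoxb3 at 0.66 ± 0.31) and by 487 of all 11569 genes. In PD21 undivided bulge cells 7 passed, 6 higher and 1 lower, against 11% of all genes, with medians of 0.20 and -0.05.

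Some of these calls rested on single arrays. The PD25 divided count of 10 was 5 without divided mouse 1, 6 without divided mouse 3, 6 without undivided mouse 2, 5 without non-bulge mouse 1 and 6 without non-bulge mouse 2, and it was 3 within set A (Hoxd8, Hoxc13 and Hoxc4) and 5 within set B (Hoxd8, Hoxc13, Dlx2, Dlx3 and Hoxb7). Over all genes these settings gave 791, 742, 948, 822, 832, 413 and 798 calls, against 1026 over all arrays. Of its calls, Hoxc8, Hoxb6, Dlx5 and Hoxb3 passed in 10, 13, 17 and 20 of 31 alternative settings. In PD25 undivided bulge cells the count was 3 within set A and 6 within set B, where 640 and 950 of all genes passed, Dlx5 did not pass without non-bulge mouse 1, and Hoxb7 did not pass without undivided mouse 1 or non-bulge mouse 2. The PD21 undivided count was 4 without non-bulge mouse 2, losing Dlx3, Dlx5 and Hoxc8, 7 within set A and 2 within set B (Hoxd8 and Hoxc13), where 986, 1028 and 409 of all genes passed against 1278 over all arrays. Hoxc8 was also lost there without undivided mouse 2, and Hoxc4 without non-bulge mouse 1. The PD25 divided call of Hoxc4 was lost without divided mouse 1 or non-bulge mouse 1, and that of Hoxb7 without divided mouse 3 or non-bulge mouse 2.

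**Figure D3:**
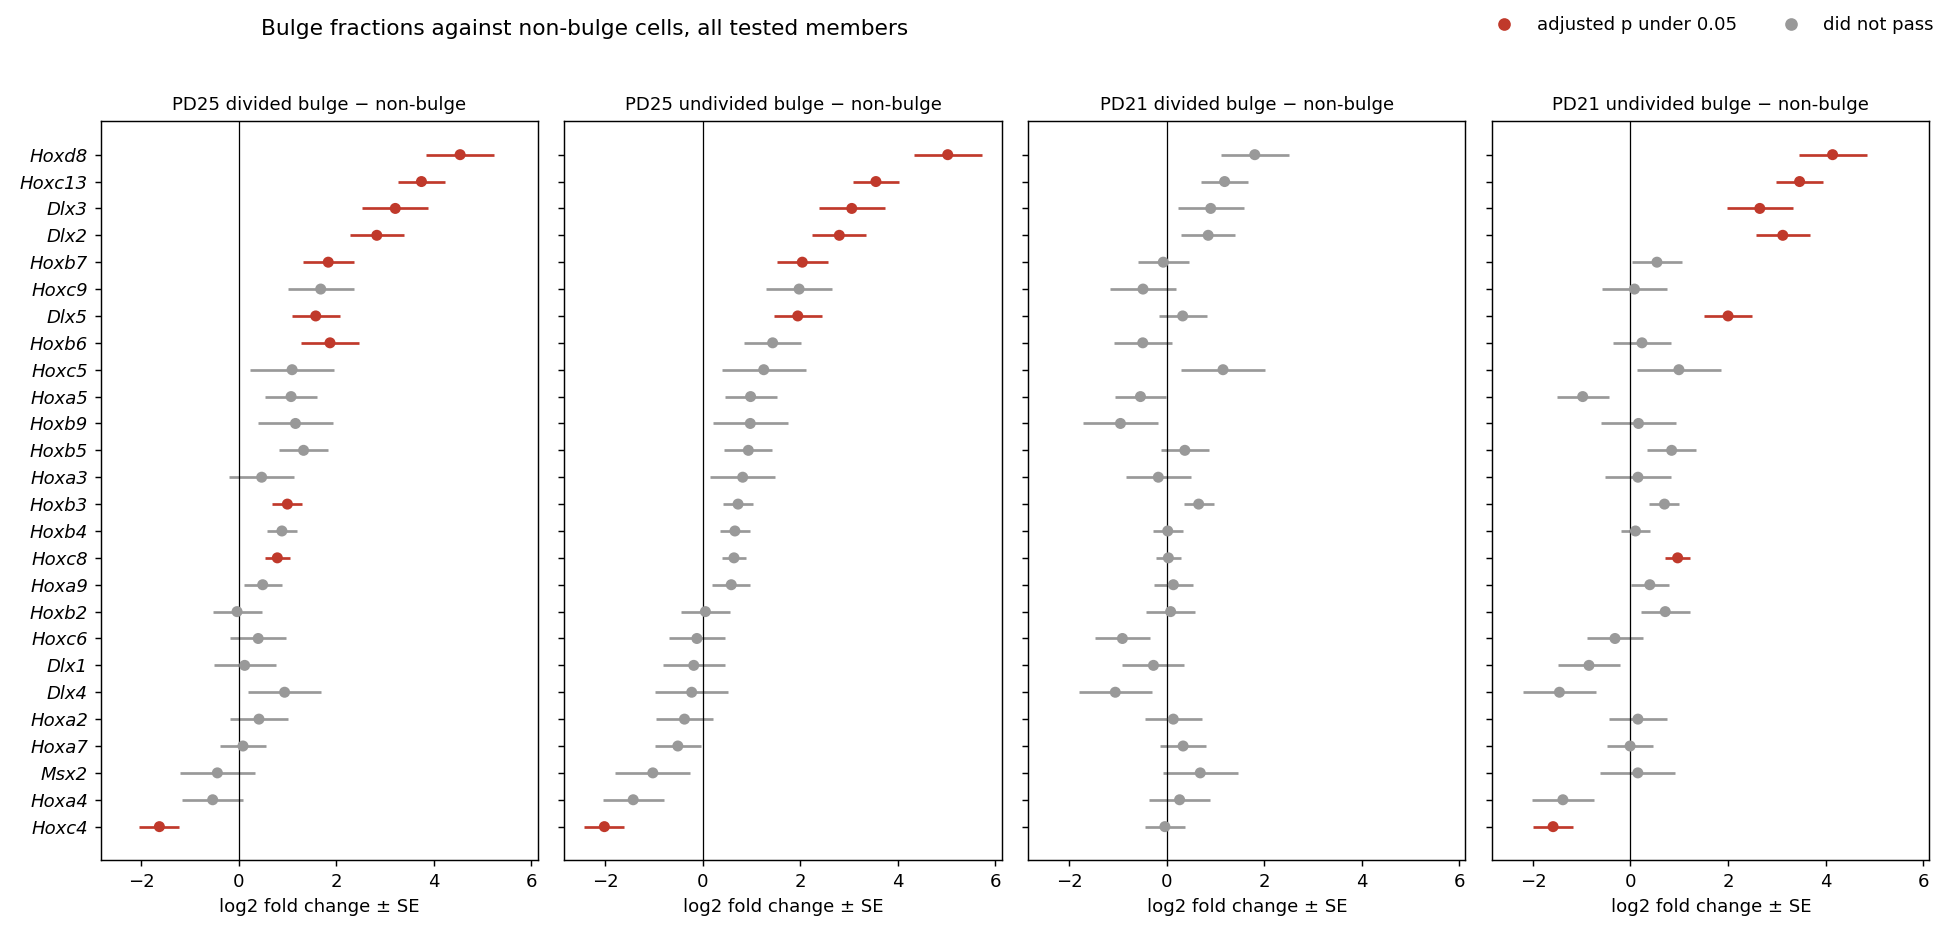
Log2 fold change ± SE of the 26 tested Hox, Dlx and Msx genes in each bulge fraction against non-bulge cells of the same age, from the limma fit to 18 arrays, with genes that passed at an adjusted p of 0.05 in red. Hoxd8, Hoxc13, Dlx3 and Dlx2 sit furthest to the right in 3 of the 4 panels and Hoxc4 furthest to the left, and the PD21 divided panel holds 0 passing genes.

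The plot of fold changes against non-bulge cells sets the 26 genes side by side. Promoter sequences are given for Hoxd8 and Dlx2, which were higher together, and for Hoxc4, which was lower, since RefSeq entries (GRCm38.p6) were at hand for these 3. Each is the 250 bases before the transcript start, on the gene's own strand: Hoxd8 from chr2:74704365-74704614 on the plus strand, Dlx2 from chr2:71546755-71547004 on the minus strand and Hoxc4 from chr15:103034145-103034394 on the plus strand. Capitals mark matches to CTTTGA, a core that TCF and LEF1 proteins are known to bind.
Hoxd8: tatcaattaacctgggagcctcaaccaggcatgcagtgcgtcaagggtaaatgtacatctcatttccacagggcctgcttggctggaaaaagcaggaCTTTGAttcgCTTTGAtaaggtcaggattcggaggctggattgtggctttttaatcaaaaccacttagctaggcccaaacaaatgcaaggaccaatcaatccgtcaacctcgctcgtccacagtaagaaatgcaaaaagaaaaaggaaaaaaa
Dlx2: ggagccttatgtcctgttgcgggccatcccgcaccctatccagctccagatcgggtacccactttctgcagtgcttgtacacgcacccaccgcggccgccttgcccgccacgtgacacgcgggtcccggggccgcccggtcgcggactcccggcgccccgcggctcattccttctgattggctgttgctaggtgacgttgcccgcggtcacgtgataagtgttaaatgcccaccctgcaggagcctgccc
Hoxc4: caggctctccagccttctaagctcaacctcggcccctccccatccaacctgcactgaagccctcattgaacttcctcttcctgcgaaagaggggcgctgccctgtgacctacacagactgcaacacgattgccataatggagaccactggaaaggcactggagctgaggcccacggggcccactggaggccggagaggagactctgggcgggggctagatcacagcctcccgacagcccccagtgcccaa
The windows were searched on both strands for CTTTGA, for the homeodomain core TAATTA, for the Hox-Pbx composite TGATTNAT and for the Runx core TGTGGT. Hoxd8 held CTTTGA at 153 and 143 bases before the start, with no overlap between the matches, and the other motifs were not in these 3 windows. Of 32851 such windows in the RefSeq table, 13.8% held CTTTGA at least once and 1.37% more than once, 4.84% held TAATTA, 2.82% TGATTNAT and 14% TGTGGT. The base composition differed too, with 44.4% G and C and 6 CpG dinucleotides in the Hoxd8 window, 66.4% and 24 in the Dlx2 window and 62% and 8 in the Hoxc4 window, against medians of 52.4% and 6 over the table. A match describes the letters and does not show that a factor binds there. The table held windows for 24 of the 42 genes, and for 11 of the 26 tested.

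The second question was whether bulge cells that divided during the chase differ from bulge cells that did not. At PD21, Hoxd8, Hoxc13, Dlx2, Dlx5 and Hoxc8 were lower and Hoxc4 was higher in divided than in undivided bulge cells, so each lay nearer to its non-bulge level. At PD25, 0 of the 26 genes passed. The arrays are those listed above for each gene.

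At PD21 the log2 fold change of divided over undivided bulge cells was -2.28 ± 0.48 for Hoxc13 (limma adjusted p = 0.00262), -2.27 ± 0.55 for Dlx2 (adjusted p = 0.00888), -1.67 ± 0.49 for Dlx5 (adjusted p = 0.0343) and -0.93 ± 0.25 for Hoxc8 (adjusted p = 0.0197). For these genes no divided sample reached the lowest undivided one, and 23.7% of all tested genes had no overlap in this comparison. Hoxd8 stood at -2.33 ± 0.70 (adjusted p = 0.0371), and here the groups overlapped, since divided mouse 3 at 272.0 lay above undivided mouse 2 at 118.5. Hoxc4 was higher by 1.55 ± 0.41 (adjusted p = 0.017). Dlx3 stood at -1.75 ± 0.68 and Hoxa4, a cervical and thoracic patterning gene, at 1.65 ± 0.63 (adjusted p = 0.126 and 0.116). Neither passed, though Hoxa4 passed when the mouse entered the fit as a block (adjusted p = 0.0278). The other measurable Hoxa4 probe set, dimmer and above the array median on 4 arrays, disagreed in sign. It stood at -0.75 ± 0.68 in the limma fit of every probe set (adjusted p = 0.657). In all 6 of the 26 genes passed, 1 higher and 5 lower, where 8.28% of all genes passed, and the median was -0.40 over the 26 and 0.07 over all. These differences stand beside the low Cd34 signal of the PD21 divided samples given above.

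The PD21 count was 3 without divided mouse 1 or divided mouse 2, 2 without undivided mouse 1, 3 within set A (Hoxc13, Dlx2 and Hoxc4) and 0 within set B. Over all genes the same settings gave 652, 654, 714, 803 and 94 calls, against 958 over all arrays. Without undivided mouse 2 the calls of Dlx2, Dlx5 and Hoxc8 were lost, without divided mouse 3 those of Dlx5 and Hoxc8, and without undivided mouse 3 that of Hoxd8.

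At PD25 the division comparison gave log2 fold changes of 0.19 for Hoxc13 (95% interval -0.80 to 1.18), 0.03 for Dlx2 (-1.11 to 1.17), 0.15 for Dlx3 (-1.25 to 1.55), -0.37 for Dlx5 (-1.38 to 0.64), -0.48 for Hoxd8 (-1.92 to 0.95), 0.39 for Hoxc4 (-0.46 to 1.24) and 0.15 for Hoxc8 (-0.37 to 0.67). A 2-fold difference in 1 direction or the other lies inside all of these intervals except that of Hoxc8. In limma 0 of the 26 genes passed and 0 had an unadjusted p under 0.05, while 0% of all 11569 genes passed and 635 had an unadjusted p under 0.05.

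**Figure D4:**
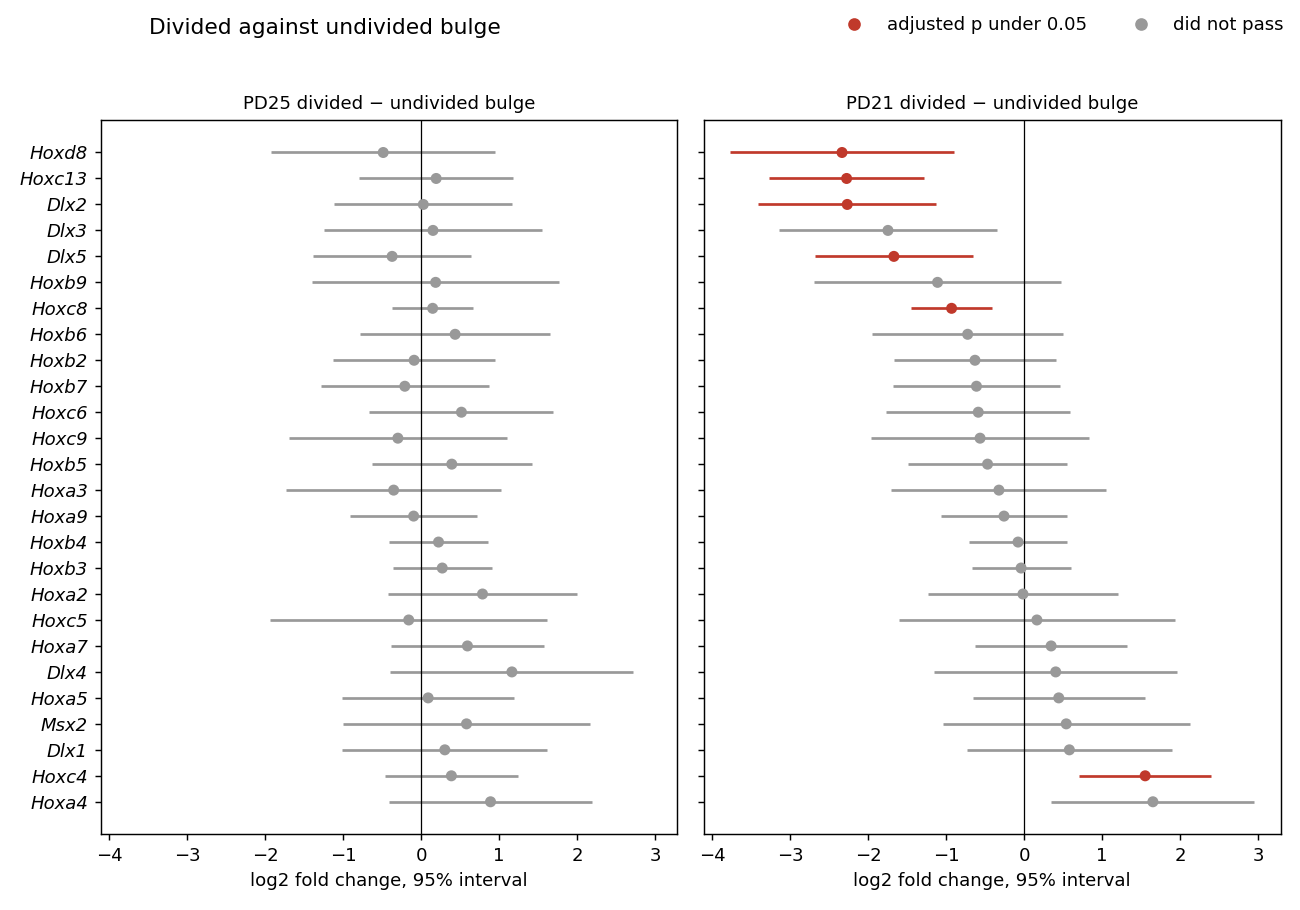
Log2 fold change with its 95% interval of divided over undivided bulge cells for the 26 tested genes at PD25 (left) and PD21 (right), from the limma fit, with genes that passed at an adjusted p of 0.05 in red. At PD25 every point lies between -0.48 and 1.16, and at PD21 Hoxd8, Hoxc13 and Dlx2 lie below -2 and Hoxc4 and Hoxa4 above 1.5.

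The plot of the division effect shows both ages. The difference between them was tested directly, as the PD25 effect minus the PD21 effect. It was 2.47 ± 0.68 for Hoxc13 (limma adjusted p = 0.067), 2.30 ± 0.78 for Dlx2 (adjusted p = 0.151) and 1.08 ± 0.35 for Hoxc8 (adjusted p = 0.138). Thus 0 of the 26 genes passed, where 1.18% of all genes passed. These 3 had an unadjusted p under 0.05, as did 1478 of all 11569 genes. When the mouse entered the fit as a block 2 passed, Hoxc13 (adjusted p = 0.0332) and Hoxc8 (adjusted p = 0.0451), and the same pair passed with the array set as a block (adjusted p = 0.0329 and 0.0488). Of all genes 4.37% passed with the mouse block and 3.39% with the set block. Within set A and within set B 0 passed, with Hoxc13 at 2.66 and 2.30. The count was 1 without PD25 divided mouse 2, without PD25 non-bulge mouse 1 or without PD25 non-bulge mouse 2.

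The ages themselves were compared within each fraction. In divided bulge cells Hoxd8, Hoxc13, Dlx2, Hoxb6 and Hoxc8 were higher and Hoxc4 was lower at PD25 than at PD21. In undivided bulge cells and in non-bulge cells 0 of the 26 genes passed. The PD25 divided over PD21 divided log2 fold change was 3.29 ± 0.70 for Hoxd8 (limma adjusted p = 0.00336), 2.87 ± 0.48 for Hoxc13 (adjusted p = 0.000375), 2.58 ± 0.55 for Dlx2 (adjusted p = 0.00369), 2.03 ± 0.59 for Hoxb6 (adjusted p = 0.034), 1.02 ± 0.25 for Hoxc8 (adjusted p = 0.0113) and -1.57 ± 0.41 for Hoxc4 (adjusted p = 0.0171). The PD25 and PD21 samples did not overlap for any of these genes, nor for 21.3% of all tested genes. Dlx3 stood at 2.00 ± 0.68 (adjusted p = 0.076). This comparison uses the PD21 divided arrays with low Cd34, as the division comparison at PD21 does, so the 2 sets of values are not independent.

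In divided bulge cells 6 of the 26 genes passed between the ages, where 7.84% of all genes passed, with a median of 0.77 over the 26 and 0.00 over all. That count was 3 without PD25 divided mouse 1, 4 within set A (Hoxd8, Hoxc13, Dlx2 and Hoxc4) and 0 within set B, where 660, 595 and 59 of all genes passed against 907 over all arrays. The call of Hoxc4 was also lost without PD25 divided mouse 3 or PD21 divided mouse 2, that of Hoxc8 without PD21 divided mouse 1 or 3, and that of Hoxb6 without PD25 divided mouse 3 or PD21 divided mouse 1 or 2. In undivided bulge cells 0 passed, where 0.0951% of all genes passed. An unadjusted p under 0.05 was reached by 2 of the 26, Dlx1 at 1.42 ± 0.64 and Hoxd8 at 1.45 ± 0.70, and by 929 of all 11569 genes. In non-bulge cells 0 passed, where 0.0432% of all genes passed. An unadjusted p under 0.05 was reached there by 1 of the 26, Hoxb7 at -1.27 ± 0.52, and by 511 of all 11569 genes. Hoxc13 stood at 0.40 ± 0.48 in undivided bulge cells and 0.32 ± 0.48 in non-bulge cells between the ages, and Dlx2 at 0.28 ± 0.55 and 0.60 ± 0.55.

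The other tested members did not pass in any of the 10 comparisons without a block. Of these, 6 were taken by their mean signal. Hoxa3, known for thymus and parathyroid development, gave signals of 3483.5, 2628.7 and 1779.7 in PD25 divided bulge cells, 6938.0, 5110.0 and 950.4 in PD25 undivided bulge cells and 1164.4, 3643.9 and 1426.2 in PD25 non-bulge cells. The PD21 signals were 6105.5, 1557.9 and 1648.6 in divided bulge cells, 6344.7, 2004.2 and 2422.1 in undivided bulge cells and 4680.5, 5049.5 and 940.8 in non-bulge cells. Bulge and non-bulge samples of Hoxa3 overlapped at both ages.

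Hoxb4, known for expanding blood stem cells when overexpressed, was steadier, at 1768.4, 1409.2 and 1565.4 in PD25 divided bulge cells, 1247.3, 1655.4 and 1180.3 in PD25 undivided bulge cells and 955.8, 561.9 and 1117.0 in PD25 non-bulge cells. At PD21 these signals were 1110.7, 1115.8 and 1492.9 in divided bulge cells, 799.2, 1457.5 and 1865.2 in undivided bulge cells and 889.6, 1653.9 and 1191.3 in non-bulge cells. The PD25 bulge and non-bulge samples of Hoxb4 did not overlap, and the PD25 divided value of 0.89 ± 0.31 had an adjusted p of 0.0795 in limma.

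Hoxb5, a neighbour of Hoxb4 active in neural crest, gave 1291.4, 1621.7 and 2197.2 in PD25 divided bulge cells, 1044.9, 1521.6 and 1265.2 in PD25 undivided bulge cells and 421.5, 585.1 and 1114.9 in PD25 non-bulge cells. The PD21 arrays read 732.5, 420.4 and 1458.2 in divided bulge cells, 905.8, 602.8 and 2218.8 in undivided bulge cells and 269.5, 604.7 and 1227.7 in non-bulge cells. Within each PD21 fraction mouse 3 was the highest. The PD25 divided value of Hoxb5 was 1.33 ± 0.49 (limma adjusted p = 0.111) and 1.33 ± 0.32 when the mouse entered the fit as a block (adjusted p = 0.00562).

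Hoxa9, a regulator of blood progenitors, gave 1105.9, 1270.5 and 1424.6 in PD25 divided bulge cells, 1408.4, 1130.9 and 1535.7 in PD25 undivided bulge cells and 639.4, 920.2 and 1200.2 in PD25 non-bulge cells. In the PD21 mice it gave 885.8, 515.5 and 1002.4 in divided bulge cells, 1520.3, 496.7 and 1041.3 in undivided bulge cells and 341.0, 1055.3 and 938.5 in non-bulge cells, and bulge and non-bulge samples overlapped at both ages. Hoxa5, known for lung development, gave 887.6, 802.0 and 1069.9 in PD25 divided bulge cells, 753.1, 1038.1 and 802.9 in PD25 undivided bulge cells and 194.0, 768.6 and 504.8 in PD25 non-bulge cells. At PD21 Hoxa5 gave 838.6, 262.8 and 1005.0 in divided bulge cells, 457.7, 166.6 and 1099.3 in undivided bulge cells and 724.8, 1186.5 and 812.9 in non-bulge cells. The PD25 divided samples lay above the non-bulge samples, by a narrow margin over mouse 2, and the other bulge groups overlapped with theirs.

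Hoxc5, the neighbour of Hoxc4, gave 388.7, 776.1 and 378.9 in PD25 divided bulge cells, 845.3, 394.1 and 481.8 in PD25 undivided bulge cells and 28.2, 490.7 and 562.3 in PD25 non-bulge cells. At PD21 it gave 315.0, 553.7 and 557.8 in divided bulge cells, 185.0, 601.2 and 602.5 in undivided bulge cells and 401.9, 20 and 631.1 in non-bulge cells. The 3 measurable Hoxc5 probe sets disagreed in sign, at 1.25 ± 0.84, -0.53 ± 0.54 and -0.66 ± 0.95 in PD25 undivided bulge against non-bulge cells. Msx2, the hair matrix factor, exceeded the array median on 6 arrays and stood at -0.44 ± 0.77 in PD25 divided, -1.02 ± 0.77 in PD25 undivided, 0.69 ± 0.77 in PD21 divided and 0.15 ± 0.77 in PD21 undivided bulge cells against non-bulge cells. The values of the genes that did not pass, Hoxa2, Hoxa4, Hoxa7, Hoxb2, Hoxb9, Hoxc6 and Hoxc9 among them, ran from -0.53 to 1.68 in PD25 divided, -1.42 to 1.98 in PD25 undivided, -1.05 to 1.81 in PD21 divided and -1.46 to 0.99 in PD21 undivided bulge cells.

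Genes that work with these factors were read from named lists. Of 9 TALE partners of Hox proteins 8 were tested, and Pbx3 alone passed in bulge comparisons. It was higher by 2.35 ± 0.40 in PD25 divided, 2.90 ± 0.40 in PD25 undivided and 1.93 ± 0.40 in PD21 undivided bulge cells against non-bulge cells (limma adjusted p = 0.000232, 1.22e-05 and 0.0014), and it stood at -0.07 ± 0.40 in PD21 divided bulge cells. The list medians were 0.54, 0.32, 0.33 and -0.23 in PD25 divided, PD25 undivided, PD21 undivided and PD21 divided bulge cells. The shares of all genes that passed were 8.87%, 10.5%, 11% and 0.182% in the same order. Pbx3 was also lower in PD21 divided than in PD21 undivided bulge cells, at -2.002 ± 0.40 (adjusted p = 0.00145). Of 14 non-coding transcripts of the Hox and Dlx clusters 3 were tested. Hoxb5os, which runs antisense in the Hoxb cluster, was higher by 2.92 ± 0.92 in PD21 undivided bulge cells (adjusted p = 0.0412), and it stood at 2.29 ± 0.92 and 2.47 ± 0.92 in PD25 divided and undivided bulge cells without passing.

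The list of signals known upstream of Dlx and Msx genes was called in both directions. It also holds Id1, Id2, Id3 and Axin2, which are targets that BMP or Wnt signalling induces. Of its 18 genes 17 were tested. Against non-bulge cells 4 were higher and 4 lower in PD25 divided, and 4 higher and 5 lower in PD25 undivided bulge cells. In PD21 divided bulge cells 0 passed, and in PD21 undivided bulge cells 3 were higher and 4 lower. The list medians were 0.14, 0.08, 0.06 and 0.30 in the same order. Of all genes 8.87%, 10.5%, 0.182% and 11% passed in these comparisons. The genes higher in all 3 bulge groups with changes were Id1, Id2 and Id3, inhibitors of basic helix-loop-helix factors that BMP signalling induces. Id2 was higher by 1.96 ± 0.32 in PD25 divided, 2.78 ± 0.32 in PD25 undivided and 2.81 ± 0.32 in PD21 undivided bulge cells (limma adjusted p = 0.000165, 1.18e-06 and 1.08e-06). The ligand gene Bmp4 was lower, at -3.10 ± 0.49, -4.44 ± 0.49 and -3.90 ± 0.49 (limma adjusted p = 0.000113, 7.37e-07 and 4.25e-06). Wnt3 was lower too, at -3.62 ± 0.52, -3.95 ± 0.52 and -3.54 ± 0.52 (limma adjusted p = 3.44e-05, 6.92e-06 and 3.16e-05). Of the other ligand genes in the list, Bmp6 was higher in both PD25 bulge fractions. Bmp2 was lower in PD25 divided and Wnt10a in PD25 undivided bulge cells. The receptor gene Bmpr1b was lower in PD25 divided, PD25 undivided and PD21 undivided bulge cells. Axin2 was lower in undivided bulge cells at both ages.

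Genes known to lie downstream of Hoxc13, Dlx3 or Msx2 in hair and epidermis were called in both directions against non-bulge cells. Of all genes 8.87% passed in PD25 divided, 10.5% in PD25 undivided, 0.182% in PD21 divided and 11% in PD21 undivided bulge cells. Of 24 genes 16 were tested, with 1 higher and 1 lower in PD25 divided, 1 higher and 3 lower in PD25 undivided, 0 and 0 in PD21 divided and 1 higher and 2 lower in PD21 undivided bulge cells, and medians of 0.03, -0.12, 0.11 and -0.07. The higher gene was Lef1, a nuclear partner of β-catenin, at 1.83 ± 0.58, 2.81 ± 0.58 and 3.84 ± 0.58 in PD25 divided, PD25 undivided and PD21 undivided bulge cells (limma adjusted p = 0.0497, 0.00153 and 4.99e-05). The lower genes included Gata3, an inner root sheath and epidermal factor, at -1.37 ± 0.30, -1.52 ± 0.30 and -1.54 ± 0.30 (adjusted p = 0.00344, 0.001 and 0.000862). A list of hair shaft and matrix markers, 18 of its 19 genes on the array, shares 14 of them with that downstream list and is not a separate test of it. Of these 10 were tested, 0 were higher and Gata3 alone was lower. Among its keratins Krt83 exceeded the array median on 6 arrays, Krt81 on 4 and Krt34, Krt36 and Krt71 on 3 each. Krt33b did so on 2, Krt31, Krt33a and Krt73 on 1 and Krt35 and Krt86 on 0. That list's summed signal was 2237 to 3386, 1640 to 2088 and 3273 to 5394 in PD25 divided bulge, undivided bulge and non-bulge cells. At PD21 it was 3301 to 4491, 1846 to 2937 and 3938 to 4645 in the same fractions. Gata3 was the highest gene of that sum. Its median signals were 1159.8, 953.9 and 2686 at PD25 and 3135.7, 1021.6 and 3456.7 at PD21, in the same order. The list median log2 fold change against non-bulge cells was 0.10 in PD25 divided and -0.35 in PD25 undivided bulge cells. It was 0.01 in PD21 divided and -0.07 in PD21 undivided bulge cells.

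Of 20 chromatin regulators of Hox genes 19 were tested, and Ezh1, an enzyme of the Polycomb repressive complex, alone passed against non-bulge cells, at 1.05 ± 0.31 in PD25 undivided and 0.96 ± 0.31 in PD21 undivided bulge cells (limma adjusted p = 0.0265 and 0.0433). In these comparisons 10.5% and 11% of all genes passed. Of 24 other homeobox genes of skin 15 were tested, with 5 higher and 4 lower in PD25 divided, 4 and 4 in PD25 undivided, 1 and 0 in PD21 divided and 4 and 4 in PD21 undivided bulge cells, and medians of 0.53, 0.38, 0.01 and 0.35. The shares of all genes that passed were 8.87%, 10.5%, 0.182% and 11% in the same order. Lhx2, which is known to maintain bulge stem cells and is also on the bulge list, was higher in all 4 bulge groups, by 4.51 ± 0.25 in PD25 divided, 4.19 ± 0.25 in PD25 undivided, 1.96 ± 0.25 in PD21 divided and 4.11 ± 0.25 in PD21 undivided bulge cells (adjusted p = 4.48e-11, 2.17e-10, 0.000349 and 1.65e-10). Satb1, a chromatin organiser, stood lower, at -2.80 ± 0.41, -3.56 ± 0.41 and -3.31 ± 0.41 in PD25 divided, PD25 undivided and PD21 undivided bulge cells (adjusted p = 4.4e-05, 1.18e-06 and 3.45e-06).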

How the data were processed

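Affymetrix MOE 430 2.0 arrays measured RNA of 6 sorted skin fractions, 3 mice each. The deposited values are probe set intensities on a linear scale, made by the authors with GCOS per the submitters' processing notes, whose version these sources do not name. The arrays shared a 2% trimmed mean of 500 and were scaled no further. Precision is limited by 3 mice a group, most of all for dim probe sets. The 3' to 5' signal ratio of the Gapdh control ran from 3.1 to 11.6 over the arrays. In set A it was 11.6, 9.46 and 9.96 in PD25 divided bulge, undivided bulge and non-bulge cells. For PD21 mouse 3, in set B, it was 9.67, 3.21 and 8.77 in the same fractions. PD21 mice 1 and 2 gave 9.05, 8.58 and 7.15, and 5.62, 6.19 and 4.57. PD25 mice 2 and 3 gave 5.06, 5.95 and 4.11, and 3.1, 5 and 6.52. The part of this ratio in the results was not tested.

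Group means of log2(signal + 16) over all 18 arrays were fitted by lmFit of limma 3.58.1, run in R 4.3.3, and moderated by eBayes along the mean-variance trend (12 residual and 11.2 prior degrees of freedom). The scripts were first tested on simulated data. A probe set was kept when above its array's median in 3 or more arrays, and the one of highest mean stood for its gene, leaving 11569 genes. Each comparison's p-values were adjusted over these genes by the Benjamini-Hochberg method, with 0.05 as the threshold for passing. Probe sets with several symbols (932) or none listed (9160) were left out.

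The members, lists and alternatives were chosen with earlier results of these data known. Named with values were members that passed anywhere, Hoxc13, Dlx3 and up to 6 more by mean signal, and up to 4 passing genes of each list. Fits with the array set as a block or within a set were added after seeing the data. Same-numbered mice within an age are the same mouse, per the labels, and residuals of their 18 array pairs correlated at 0.08 to 0.46 (median 0.20), against a median of -0.17 between mice of an age. Promoters are RefSeq GRCm38.p6.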

Additional observations from a re-analysis of the deposited data

How the results depend on the processing

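The 36 gene calls were refitted under 31 alternatives (offsets of 64 and 4, no filter, a filter of 9 arrays, quantile normalisation, a floor at the 20th percentile, every probe set, no variance trend, only the groups compared, the mouse or the array set as a block, each set alone and each array left out). Of 1116 values 976 stayed past the threshold, 140 did not and 0 reversed. Hoxc13 and Hoxd8 in undivided bulge at both ages and in PD25 divided bulge against non-bulge cells, and Hoxc4 in PD25 undivided bulge, passed under all 31. Of 310 counts 282 stayed within 1.5 times the reported one. Of the 28 others 13 left out 1 array, named in the report and within the ranges below. The remaining 15 were PD25 divided bulge against non-bulge (10 reported), at 5 with no filter, 6 with no variance trend, 3 within set A and 5 within set B; PD25 undivided against non-bulge (7), at 3 within set A and 11 when the mouse was a block; PD21 undivided against non-bulge (7), at 2 within set B; divided against undivided at PD21 (6), at 3 within set A and 0 within set B; PD25 against PD21 in divided bulge (6), at 0 within set B; and the difference of the division effects (0), at 1 with an offset of 64 or quantile normalisation and 2 with only the groups compared, the mouse as a block or the array set as a block. The cause of these shifts was not tested, though a single set holds fewer arrays. The mouse block moved no other count by over 1.5 times. It added Hoxb4 and Hoxb5 in PD25 divided bulge against non-bulge (12) and Hoxa4 in divided against undivided bulge at PD21 (7), and lost 0 calls. Without 1 array at a time the counts ran from 5 to 10 in PD25 divided, 6 to 8 in PD25 undivided, 0 to 0 in PD21 divided and 4 to 7 in PD21 undivided bulge against non-bulge cells, 0 to 0 and 2 to 6 for division at PD25 and PD21, 3 to 7, 0 to 0 and 0 to 0 between the ages in divided bulge, undivided bulge and non-bulge cells, and 0 to 1 for the difference of the division effects.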
